A study of Mus musculus with 4 samples.

Results

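The genes Tnfsf11 (ENSMUSG00000022015), Tnfrsf11a (ENSMUSG00000026321) and Tnfrsf11b (ENSMUSG00000063727) encode RANKL, its receptor RANK and the decoy receptor osteoprotegerin. They are 3 of the 32285 genes listed in single-cell RNA sequencing of mammary tumors from 4 mice, and were taken by symbol in every library. Both groups carried the floxed Frmd8 alleles and the PyMT oncogene transgene, and were harvested at 17 to 18 weeks of age, 1 mouse per library. The Cre- group (replicates 1 and 3) was MMTV-Cre-; Frmd8 fl/fl; PyMT, and the Cre+ group (replicates 2 and 4) was MMTV-Cre+; Frmd8 fl/fl; PyMT. The MMTV promoter drives both the oncogene and Cre mainly in mammary epithelium, so that stromal and immune cells are not the intended site of the deletion. Cells of the tumors were sorted before capture, and the gate of the sort is not given in the sources used here.

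RANKL is a ligand of the tumor necrosis factor family that is made as a membrane protein and can be shed by proteases. In the normal mammary gland, progesterone acts on luminal cells that carry the progesterone receptor, these hormone-sensing cells make RANKL, and RANK on neighboring luminal and basal cells receives it. RANK recruits TRAF adaptors and switches on both arms of the NF-kB pathway, and osteoprotegerin is a secreted receptor that binds RANKL and keeps it from RANK. The same ligand and receptor were named for osteoclasts, the bone-resorbing cells of the macrophage lineage, and for the contact of T cells with dendritic cells.

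The promoters of the ligand and the receptor are shown because they are the regulatory sequence upstream of the RNA counted here, and because progesterone is the hormone this ligand is known to answer. Each run gives the 250 bases before the RefSeq transcription start on the gene's own strand, from a table of the build GRCm38.p6, which held 2 of the 3 genes. The windows are chr14:78308044-78308293 on the minus strand for Tnfsf11 and chr1:105780473-105780722 on the plus strand for Tnfrsf11a. Capitals mark matches on either strand to 4 motifs that were searched. These were a common promoter element near the start, the TATA box, with the letters TATAAA. The half-site of steroid receptors such as the progesterone receptor was searched as AGAACA. The STAT site was searched as TTCNNNGAA, and the GC box as GGGCGG. The matches do not overlap with each other.
Tnfsf11: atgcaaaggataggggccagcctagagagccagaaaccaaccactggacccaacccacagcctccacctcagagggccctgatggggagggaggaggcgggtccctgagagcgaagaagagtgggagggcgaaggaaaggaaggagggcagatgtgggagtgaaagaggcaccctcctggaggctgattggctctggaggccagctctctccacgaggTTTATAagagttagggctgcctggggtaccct
Tnfrsf11a: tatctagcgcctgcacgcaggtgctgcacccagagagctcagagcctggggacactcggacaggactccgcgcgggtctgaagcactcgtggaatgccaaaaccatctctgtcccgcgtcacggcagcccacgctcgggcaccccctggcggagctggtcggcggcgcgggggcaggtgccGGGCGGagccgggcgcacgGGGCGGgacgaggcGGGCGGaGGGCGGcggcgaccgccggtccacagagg
The Tnfsf11 window held 1 match, a TATA box on the opposite strand (TTTATA as printed), 32 to 27 bases before the start. The Tnfrsf11a window held 4 GC boxes, at 69 to 64, 50 to 45, 36 to 31 and 29 to 24 bases before the start, and no TATA box. Neither window held the AGAACA or TTCNNNGAA letters. Of 32851 such windows, 12.4% held a TATA box, 16.1% AGAACA, 7.02% TTCNNNGAA and 32.7% a GC box. The GC content was 60.4% for Tnfsf11 and 73.6% for Tnfrsf11a, against a median of 52.4% over all windows.

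Unique molecular identifiers (UMIs), each standing for 1 captured RNA molecule, were counted per gene and cell barcode. Barcodes with at least 1000 UMIs and at most 20% mitochondrial UMIs were kept with no upper limit, which left 4922, 5609, 5918 and 7123 in replicates 1 to 4 (23572 in all), with 107848230 to 134882211 UMIs per library and a median of 12455 to 13072.5 per barcode. Cells over 5000 genes or 30000 UMIs held 7.35% to 36.4% of the Tnfsf11 UMIs of a library, 50.8% to 72.8% of those of Tnfrsf11a and 63.1% to 82.5% of those of Tnfrsf11b, against 57.3% to 72.6% of all UMIs. Pairs of libraries shared 6 to 16 barcodes. Replicate 4 stands apart in how it was made: it was deposited with all barcodes and under another version of the counting software, so that version, deposited form and this 1 mouse cannot be told apart. A barcode was put in a class where it held enough of the class's marker genes, none of which is Tnfsf11, Tnfrsf11a or Tnfrsf11b. This gave 20383 barcodes with a class, 1274 with markers of more than 1 lineage, which were left out, and 1915 with none. Levels are the UMIs of a gene per 1000000 UMIs of the class in a library (CPM), with exact 95% Poisson intervals that cover counting error only, and means are given with the SD over mice. Since the kit reads the 3′ ends of transcripts, CPM is compared between cells and not between genes.

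Frmd8 was checked first as the targeted gene. In luminal cells other than the hormone-sensing ones, it stood at 24.4 and 24.3 CPM in the Cre- mice (replicates 1 and 3), and the Cre+ mice (replicates 2 and 4) were at 5.11 and 10.8 CPM. The gene was not called (log2 fold change −1.52, SE 0.46, adjusted p = 1.00, edgeR quasi-likelihood test). UMIs near the 3′ end need not be lost with the deleted exons.

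All 3 genes were detected in every library. The ligand was rare, with 136, 107, 156 and 58 Tnfsf11 UMIs in 60, 54, 73 and 34 barcodes of replicates 1 to 4. Tnfrsf11a had 3931, 3507, 4842 and 3867 UMIs, and Tnfrsf11b 953, 1471, 1004 and 2581. T cells held 69.4% of the Tnfsf11 UMIs against 1.94% of all UMIs. Macrophages held 37.7% of the Tnfrsf11a UMIs against 20.4% of all, and the luminal cells other than hormone-sensing ones 50.3% against 50.8%. Fibroblasts held 38.6% of the Tnfrsf11b UMIs against 6.81% of all, with 3.25% to 83.5% by library against 1.91% to 13.5% of all. The luminal cells other than hormone-sensing ones held 39.6% against 50.8%. The plot of levels by class shows all 3 genes.

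**Figure D1:**
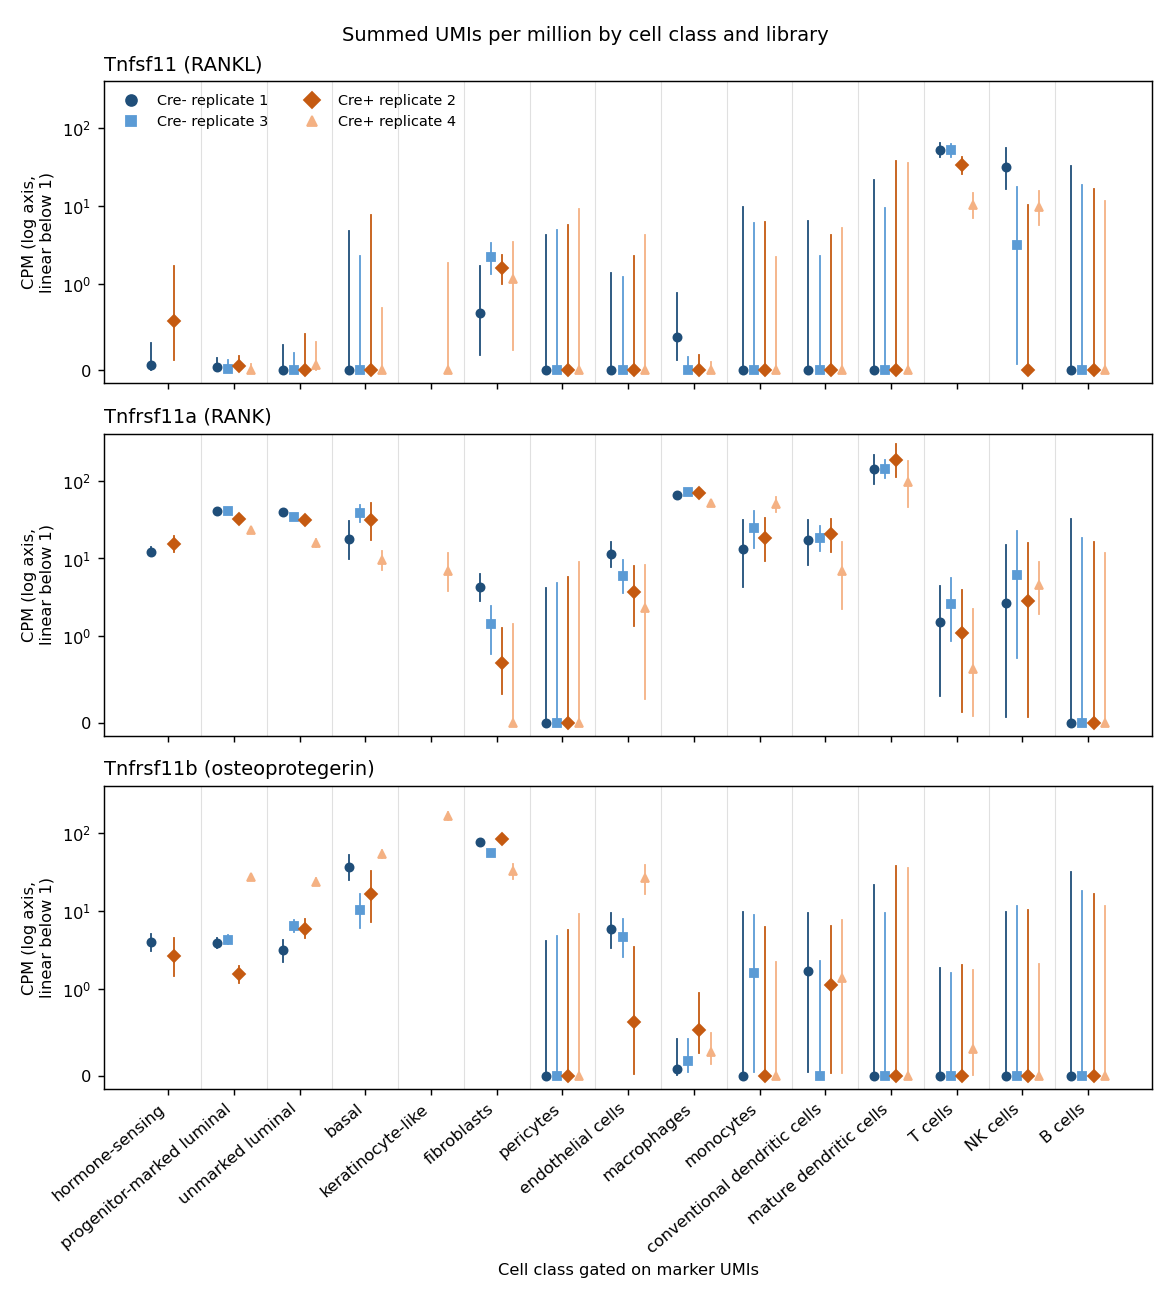
Level of Tnfsf11, Tnfrsf11a and Tnfrsf11b (CPM on a log axis that is linear below 1) by cell class, one point per library with at least 10 cells of the class and bars for exact 95% Poisson intervals. By mean level, Tnfsf11 is highest in T cells, and Tnfrsf11a in mature dendritic cells and macrophages. Mean Tnfrsf11b is highest in fibroblasts and in the keratinocyte-like cells of Cre+ replicate 4. In that library the basal cells (53.6 CPM) lie above the fibroblasts (32.6 CPM).

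Hormone-sensing luminal cells, the source of RANKL in the normal gland, held almost none of it in these tumors. They were found in numbers in only 2 libraries, 332 cells of replicate 1 (Cre-) and 97 of replicate 2 (Cre+), while replicate 3 had 7 and replicate 4 had 0. Tnfsf11 had 1 UMI in the first of them (0.06 CPM, 95% interval 0.00 to 0.32) and 3 UMIs, all in 1 cell, in the second (0.57 CPM, 0.12 to 1.67). It had 0 in the 7 cells of Cre- replicate 3. These cells were deep, with median depths of 43411 and 36204 UMIs in the first 2 libraries.

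RNA of several upstream genes of the pathway was found in these cells. Hormone levels and the activity of the receptors were not tested. The progesterone receptor Pgr, which with Esr1, Prlr, Cited1 and Foxa1 was among the genes that chose them, stood at 150, 63.8 and 52.1 CPM in replicates 1, 2 and 3, against 0.21 to 3.55 CPM in the other luminal cells. Genes that did not choose them were high as well. Wnt4, a ligand known as another progesterone target in this cell type, stood at 234, 227 and 260 CPM against 1.04 to 3.83 in the other luminal cells. Areg, the epidermal growth factor receptor ligand downstream of the estrogen receptor, stood at 443, 550 and 282 CPM against 3.12 to 18.0. Of the 9 upstream genes tested against the other luminal cells, 8 were called higher, 5 of which chose the cells and so had to be. Wnt4 (log2 difference 6.52), Areg (6.34) and Stat5a (0.74) were the called genes of this list that the gate did not use, where 2334 of all 15040 genes tested, or 15.5%, were called. Calcr, the calcitonin receptor of progesterone-responsive cells, had 0 UMIs in every class.

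**Figure D2:**
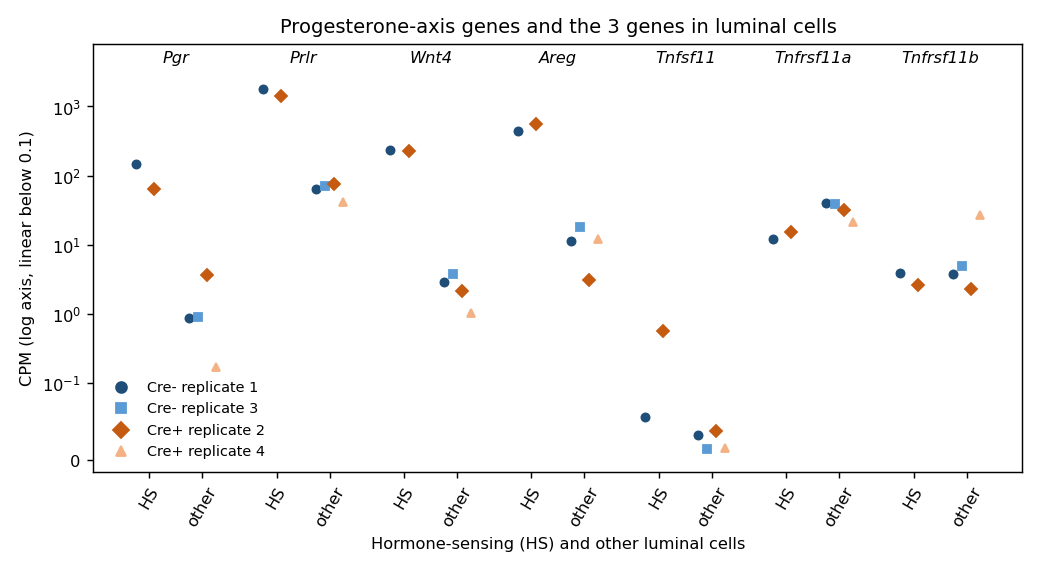
Levels (CPM on a log axis that is linear below 0.1) of Pgr, Prlr, Wnt4, Areg and the 3 genes in hormone-sensing and other luminal cells, one point per library with at least 10 cells. The hormone-related genes are far higher in hormone-sensing cells, while Tnfsf11 stays under 1 CPM in both.

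The receptor was lower in hormone-sensing cells than in the other luminal cells. The paper took its hormone-sensing cells, which had low copy number scores, as normal cells, and high-score epithelial cells as tumor cells. Copy number was not scored here, so cell type and tumor state cannot be told apart in this comparison. Tnfrsf11a stood at 12.3 and 15.4 CPM in the hormone-sensing cells of replicates 1 and 2, against 40.8 and 31.6 CPM in the other luminal cells of the same mice. These values did not overlap, but how many of all genes separate the 2 classes in this way was not counted. The log2 difference was −1.39 (SE 0.22, adjusted p = 0.0218, edgeR quasi-likelihood test), on 1 mouse of each genotype. Tnfrsf11b stood at 3.98 and 2.67 CPM against 3.76 and 2.30, a log2 difference of 0.16 (SE 0.29, adjusted p = 0.738, edgeR). Tnfsf11 did not pass the filter on low counts. Among the other genes of the pathway, the membrane protease Mmp14 (2.10) and Adam10 (2.02) were called higher and the protease inhibitor Timp2 lower (−0.67), which made 2 higher and 1 lower of 10 shedding genes. Lgr4, another receptor for RANKL, was called lower (−1.15), the only call among 3 other receptors and ligands. Of 19 signal transduction genes, Relb (0.88) and Nfkbia (0.68) were called higher and Traf1 lower (−1.65). Of 8 mammary target genes, Bcl3 was called higher (1.17), and Elf5 (−1.40) and Id2 (−1.22), which are known for alveolar differentiation, lower. Of 7 osteoclast genes, Fos (0.68) was called higher and Spp1 (−1.0) lower.

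T cells were the class with the most ligand. Tnfsf11 stood at 52.5, 33.3, 51.5 and 10.3 CPM in the T cells of replicates 1 to 4 (mean 36.9 ± 19.8, SD, n = 4), from 103, 61, 120 and 33 UMIs in 17.6%, 15.2%, 15.3% and 8.06% of the cells. The last library, Cre+ replicate 4, was the lowest, and its Poisson interval of 7.07 to 14.4 CPM lay under those of the other libraries. After thinning each cell to 2000 UMIs, the shares were 8.02%, 6.06%, 7.55% and 2.86%, with median depths of 5632 to 11376 UMIs. In macrophages, Tnfsf11 had 5 UMIs in 1 of 5733 cells, at median depths of 11261 to 18126 UMIs. Among the barcodes of up to 100 UMIs of Cre+ replicate 4, which hold free RNA, it had 2 UMIs (0.40 CPM).

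Against the other immune cells, the ligand was higher and the receptor lower in T cells. The log2 difference was 6.27 for Tnfsf11 (SE 0.56, adjusted p = 1.44e-05) and −5.51 for Tnfrsf11a (SE 0.28, adjusted p = 4.63e-07, both edgeR), in a comparison in which 54% of 12644 genes were called. Tnfrsf11a had 3, 2, 6 and 2 UMIs in the T cells of replicates 1 to 4, and Tnfrsf11b 1 UMI in all. Of the pathway lists, the related death ligand Tnfsf10 (3.21) and its receptor Tnfrsf10b (2.97) were higher, 2 of 3 other receptors and ligands. The upstream list had 3 genes higher and 0 lower of 6, Areg (0.99), Stat5b (0.65) and Stat5a (0.61). Among the shedding genes 0 were higher and 7 of 9 lower, led by Mmp14 (−5.85), Timp2 (−3.74) and Timp1 (−2.71). Of 19 signal transduction genes, Traf1 (1.44) and Traf2 (0.62) were higher, and the adaptor Gab2 (−6.92), the kinase Src (−1.22) and Nfkbia (−1.10) lower. Of 7 mammary targets, 1 was higher (Birc2, 1.64) and 4 lower, led by Ccnd1 (−5.42), and of 10 osteoclast genes 2 were higher (Itgb3, 2.60, and Nfatc1, 0.83) and 7 lower, led by the cell fusion genes Dcstamp (−7.41) and Ocstamp (−6.75) and by Spp1 (−5.17).

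Within the T cells, split by Cd4, Cd8 and regulatory markers with no test, the mean ligand level was highest in cells with Cd4, the co-receptor of helper T cells. T cells with Cd4 and no Cd8 UMIs, outside the regulatory gate, held 308, 125, 146 and 98.5 CPM of Tnfsf11 in replicates 1 to 4 (mean 169 ± 94.7), and were 13.6% of the T cells with 41.3% of their Tnfsf11 UMIs. Cytotoxic T cells with Cd8 UMIs held 10.0, 10.7, 13.9 and 5.72 CPM (mean 10.1 ± 3.38) and made up 49.8% of the T cells, with 14.8% of the UMIs. In each library the Cd4 cells were above the Cd8 cells, and the ranges of both subsets did not overlap. The share of all genes that separate these subsets in this way was not counted.

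**Figure D3:**
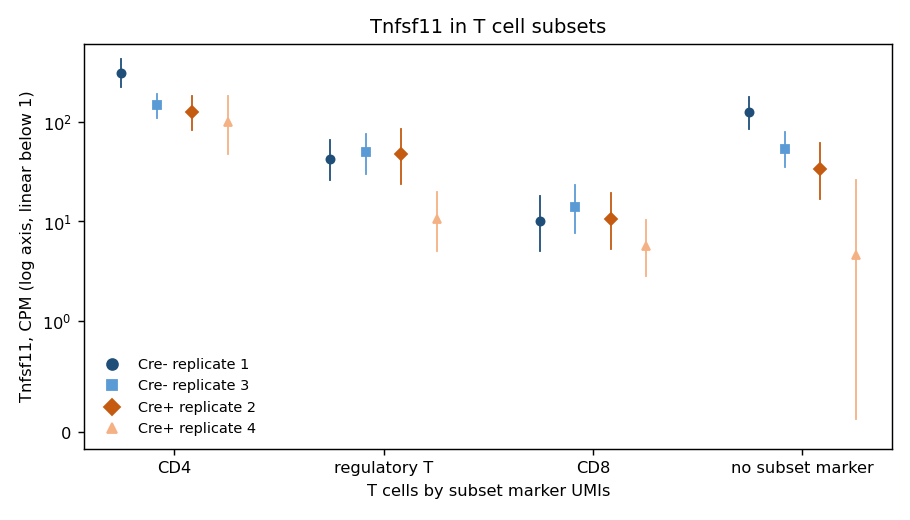
Tnfsf11 (CPM, with exact 95% Poisson intervals) in T cell subsets of each library. The Cd4 cells lie between 98.5 and 308 CPM and the Cd8 cells between 5.72 and 13.9.

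T cells of the regulatory gate, with at least 2 of Foxp3, Ikzf2 and Il2ra and so not always with Foxp3, held 42.5, 47.0, 49.2 and 10.6 CPM of Tnfsf11 (mean 37.3 ± 18.0). T cells with no subset marker held 124, 33.9, 53.7 and 4.63 CPM, the last from 1 UMI. Another 9 T cells had UMIs of both Cd4 and Cd8 and held 7 Tnfsf11 UMIs. The Cd4 cells were 10.5%, 15.6%, 20.1% and 6.05% of the T cells in replicates 1 to 4. Cre+ replicate 4 thus had the lowest share of Cd4 cells together with the lowest Tnfsf11 level of its T cells. It was also the lowest library within the Cd4 (98.5 CPM), Cd8 (5.72), regulatory (10.6) and no-marker (4.63) cells. The Poisson interval of its Cd4 cells, 47.3 to 181 CPM from 10 UMIs, overlapped those of replicates 2 and 3. That of its Cd8 cells (2.86 to 10.2) overlapped those of all other libraries. That of its no-marker cells (0.12 to 25.8) overlapped that of replicate 2. Only the interval of its regulatory cells (5.10 to 19.5) lay under those of all other libraries.

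NK cells and fibroblasts held the ligand at lower mean levels. In NK cells it was at 32.0, 0, 3.11 and 9.68 CPM in replicates 1 to 4, from 12, 0, 1 and 17 UMIs. The last value was close to the 10.3 CPM of the T cells of Cre+ replicate 4. In that library T cells held 56.9% of the Tnfsf11 UMIs, and T and NK cells together 86.2%. The 5 T cell markers summed to 128 to 413 CPM in the NK cells against 4807 to 5235 in T cells. In the NK cells, 3 to 5 of these markers had UMIs. Fibroblasts held 0.66, 1.58, 2.18 and 1.17 CPM (mean 1.40 ± 0.64), from 51 UMIs, or 11.2% of all Tnfsf11 UMIs. In fibroblasts the T cell markers summed to 2.75 to 5.31 CPM, with 4 or 5 of the 5 detected. Only 6 UMIs stood in the 8806 luminal cells outside the hormone-sensing gate. The gene had 0 UMIs in basal, keratinocyte-like, pericyte, endothelial, monocyte, conventional and mature dendritic, granulocyte and B cells.

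RANK was spread over tumor epithelium and the myeloid cells. The mature dendritic cells, which carry antigen to lymph nodes and whose RANK is known to receive RANKL from T cells, had the highest level. Tnfrsf11a stood there at 142, 186, 142 and 96.5 CPM in replicates 1 to 4 (mean 142 ± 36.5), in 14, 10, 31 and 10 cells. Macrophages held 65.3, 70.1, 71.0 and 51.4 CPM (mean 64.4 ± 9.06), and all 4 values were under the lowest of the mature dendritic cells. The levels of the mature dendritic cells rest on 108 Tnfrsf11a UMIs in all, against 6085 in macrophages, so their counting error is larger. It was not counted how many of all genes separate these classes in this way. The log2 difference was 1.13 (SE 0.24, adjusted p = 0.00276, edgeR), with 29.3% of 11230 genes called. Monocytes held 13.3, 18.6, 24.4 and 49.7 CPM and conventional dendritic cells 17.1, 20.5, 18.5 and 6.97.

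A Tnfrsf11a UMI was seen in 46.5%, 52.5%, 58.9% and 50.8% of the macrophages of replicates 1 to 4, and in 11.9%, 12.5%, 11.8% and 9.02% after thinning to 2000 UMIs. In T cells of the same libraries the shares were 1.26%, 0.87%, 1.80% and 0.81%, and 0.42%, 0.43%, 0% and 0% after thinning. Free RNA was not negligible for this gene: the barcodes of up to 100 UMIs in Cre+ replicate 4 held 112 UMIs, or 22.5 CPM (18.5 to 27.1). The T cells of that library stood at 0.62 CPM and its pericytes at 0 in 23 cells. Tnfrsf11a had 0 UMIs in pericytes and B cells of all libraries.

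Of 19 signal transduction genes 9 were called higher in mature dendritic cells than in macrophages and 0 lower, with a median log2 difference of 1.18 against −0.36 over all genes. Of all 11230 genes tested, 29.3% were called, 1261 higher and 2032 lower. Traf1, an adaptor of the TRAF family, stood at 1028, 1023, 943 and 1090 CPM in mature dendritic cells of replicates 1 to 4, against 10.4 to 28.5 in macrophages (log2 difference 5.67). Relb, the partner of Nfkb2 in the alternative arm of NF-kB, stood at 691, 713, 605 and 666 CPM against 21.1 to 32.8 (4.52). Map3k14, the kinase that activates this arm, was also higher (3.76). Of 7 mammary targets, the survival genes Birc2 (4.34) and Birc3 (1.59) and the regulator Id2 (2.20) were higher and Bcl2l1 lower (−1.97). The upstream list had 1 gene higher, Stat5a (2.71), and 0 lower of 5, and the 1 gene tested among the other receptors and ligands was not called.

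The osteoclast genes were tested in the same comparison, in which 2032 of the 3293 genes called were lower and the median over all genes was −0.36. Of 9 tested, 0 were higher and 7 lower in mature dendritic cells than in macrophages, among them Spp1 (−4.86), which encodes osteopontin, and the acid phosphatase gene Acp5 (−3.42). Ocstamp, Dcstamp and Atp6v0d2, which serve the fusion of osteoclast precursors, had 0 UMIs in mature dendritic cells of every library. In macrophages of replicates 1 to 4, Ocstamp stood at 21.2, 14.0, 12.5 and 42.7 CPM and Dcstamp at 16.5, 11.1, 14.8 and 34.8. Of 8 shedding genes, 0 were higher and 6 lower, led by Timp2 (−4.04), Timp1 (−3.66) and Mmp14 (−2.61).

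In tumor epithelium, Tnfrsf11a stood at 40.8, 31.6, 39.1 and 21.1 CPM in the luminal cells outside the hormone-sensing gate (mean 33.1 ± 8.97), below macrophages in every library. The macrophage markers summed to 32.2 to 108 CPM in the progenitor-marked and unmarked luminal cells, against 15642 to 17713 in macrophages. Cells with at least 2 of the progenitor markers Kit, Aldh1a3 and Elf5 held 41.1, 31.7, 41.0 and 23.1 CPM, and cells with fewer of them 39.4, 31.0, 34.1 and 15.7 CPM. The log2 difference was 0.17 (SE 0.16, adjusted p = 1.00, edgeR), in a comparison in which 0% of 14877 genes were called. The progenitor-marked cells were higher in all 4 libraries, and with the mouse as a block the difference was 0.18 (SE 0.08, adjusted p = 0.319, edgeR), in a fit that called 123 genes. At an unadjusted p under 0.05, 318 genes passed, and DESeq2 called 3. The progenitor gate asked only for detected markers, with no minimum per UMI, so deeper cells pass it more easily. The part of depth in this difference was not tested. Basal cells held 17.9, 31.1, 38.3 and 9.58 CPM (mean 24.2 ± 12.9), and overlapped with the luminal cells (log2 difference −0.55, SE 0.33, adjusted p = 0.353, edgeR, with 9.42% of 14792 genes called).

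The order of the Tnfrsf11a levels was mature dendritic cells, macrophages, other luminal cells, monocytes, basal cells, conventional dendritic cells, hormone-sensing cells, keratinocyte-like and endothelial cells, NK cells, granulocytes, fibroblasts and T cells. From the luminal cells to the hormone-sensing cells, each class overlapped with its neighbor in this order, and so did each from the endothelial cells to the T cells. Immune cells that met no named gate held 28.1 ± 5.06 CPM. Endothelial cells held 11.4, 3.70, 6.05 and 2.29 CPM and fibroblasts 4.32, 0.69, 1.45 and 0. Between fibroblasts and vascular cells, that is endothelial cells and pericytes together, the log2 difference was −1.27 (SE 0.52, adjusted p = 0.0653, edgeR), and with the mouse as a block it was −1.33 (adjusted p = 0.0275, edgeR).

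Osteoprotegerin RNA was mostly in fibroblasts and epithelium, and fibroblasts held the largest share of it in replicates 1 to 3. Fibroblasts, marked by collagens and Pdgfra, held 77.1, 84.5, 56.2 and 32.6 CPM of Tnfrsf11b in replicates 1 to 4 (mean 62.6 ± 23.3), in 47.7%, 59.5%, 36.2% and 28.2% of the cells, and in 12.8%, 13.1%, 7.76% and 6.84% after thinning. In Cre- replicate 3, 1 cell held 93 of the 542 UMIs, and without the highest cell of each library the mean was 57.1 CPM. In macrophages, 0.11% to 0.75% of the cells had a UMI, and pericytes, mature dendritic cells, NK cells and B cells had none. Against vascular cells the log2 difference was 3.79 (SE 0.59, adjusted p = 0.000555, edgeR), with 53.5% of 11976 genes called.

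In this comparison of fibroblasts with vascular cells, in which 53.5% of all genes were called, 6 of 9 shedding genes were higher and 1 lower, with Mmp3 (9.94), Timp2 (3.69) and Timp1 (3.63) leading and Adam10 lower (−1.59). The estrogen receptor gene Esr1 (3.93) and Stat5a (1.61) were higher, 2 of 4 upstream genes. Of 3 other receptors and ligands, Lgr4 was higher (1.38) and Tnfsf10 (−4.26) and Tnfrsf10b (−1.80) lower. The 19 signal transduction genes split into 5 higher, such as Ikbkg (1.05), Tab1 and Src (0.98 each), and 7 lower, led by Traf1 (−3.13), Ikbkb (−0.74) and Nfkb1 (−0.56). Of 7 mammary targets, Id2 was higher (1.79) and Ccnd1 lower (−2.71). Of 7 osteoclast genes, 4 were higher, led by Spp1 (5.82), Mmp9 (4.30) and Acp5 (4.14), and Nfatc1 was lower (−1.02).

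In Cre+ replicate 4 the fibroblasts held 3.25% of the Tnfrsf11b UMIs, against 48.7%, 83.5% and 54.0% in replicates 1 to 3. Their share of all UMIs was also lowest there, 1.91% against 5.19%, 13.5% and 7.89%. Epithelial cells of Cre+ replicate 4 held 89.5% of the Tnfrsf11b UMIs and 52.5% of all UMIs. The luminal cells outside the hormone-sensing gate stood at 26.7 CPM in this library, against 3.76, 2.30 and 4.92 in replicates 1 to 3. The highest single cell held 131 UMIs, and without the highest cell of each library the mean over the 4 mice was 8.62 CPM in place of 9.42. The fibroblast markers summed to 12.9 CPM in the progenitor-marked and 40.9 CPM in the unmarked luminal cells of Cre+ replicate 4, against 26.4 to 98.7 CPM in the other libraries and 42578 to 51925 in fibroblasts. The 7 keratinocyte markers summed to 211 and 194 CPM in these cells against 40.4 to 102 in the other libraries. The 8 basal markers summed to 284 and 492 CPM against 50.8 to 173. The part of these markers in the Tnfrsf11b level was not tested.

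The keratinocyte-like and basal cells of Cre+ replicate 4 stood higher still. Its 64 keratinocyte-like cells, which carry keratins of skin and of squamous change, held 335 Tnfrsf11b UMIs, or 166 CPM (149 to 185), and no other library had 10 such cells. Its 224 basal cells held 53.6 CPM, against 37.0, 16.6 and 10.3 CPM in replicates 1 to 3, where 29, 8 and 17 UMIs were counted. Endothelial cells held 5.88, 0.62, 4.70 and 26.3 CPM in replicates 1 to 4, the last again the highest. Basal cells of Cre+ replicate 4 also had the highest sum of fibroblast markers, 1791 CPM against 387 to 646, with 5 or 6 of the 6 detected in each library. Their epithelial markers had the lowest sum, 984 CPM against 2461 to 3111. The basal gate could be passed on basal markers alone, without the epithelial markers. The part of these markers in the Tnfrsf11b level was not tested, so the basal class may differ in make-up between libraries.

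Between basal and luminal cells, the log2 difference of Tnfrsf11b was 1.85 (SE 0.77, adjusted p = 0.187, edgeR). With the mouse as a block it was 1.90 (adjusted p = 0.0174, edgeR), and without Cre+ replicate 4 it was 2.45 (adjusted p = 0.0122, edgeR). Without the other libraries it was not called, at 1.28 without Cre- replicate 1 (adjusted p = 0.565), 1.78 without Cre+ replicate 2 (adjusted p = 0.0620) and 1.93 without Cre- replicate 3 (adjusted p = 0.386, all edgeR). In the basal cells of replicate 1, 1 cell held 17 of the 29 UMIs. Basal cells were above luminal cells of the same mouse in all 4 libraries. Of all 14792 genes tested, 9.42% were called. Of the pathway genes, Timp3 (2.83) and Mmp14 (2.26) were higher in basal cells and the protease regulator Rhbdf2 lower (−1.32), among 10 shedding genes. Rspo1, a Wnt agonist, was higher (3.46) and Elf5 (−1.99), Bcl3 (−1.35) and Id2 (−0.92) lower, among 8 mammary targets. Of 19 signal transduction genes, Traf5 was higher (2.36) and Tab2 (−0.72) and Rela (−0.63) lower, and 0 of 9 upstream, 3 other receptor and 8 osteoclast genes were called.

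Among luminal cells, Tnfrsf11b was higher in cells with fewer alveolar (milk protein) markers in 3 libraries, and highest in cells with 2 or more basal markers in all 4. This split by number of markers was chosen after the values were seen and has no test. In Cre+ replicate 4 the level was 110 CPM in the 392 cells with no alveolar marker, 30.5 in the 1521 cells with 1 and 12.8 in the 740 cells with 2 or more. The same order held in replicates 1 (38.4, 15.8 and 2.66 CPM) and 2 (22.0, 6.11 and 1.16 CPM) but not in replicate 3 (5.87, 7.28 and 4.0 CPM), and the first of the 3 values rests on 7, 3 and 1 UMIs in these libraries. With 0, 1 and 2 or more basal markers, the level was 14.9, 23.3 and 47.8 CPM in Cre+ replicate 4. It was 1.76, 3.44 and 9.86 CPM in replicate 1, 1.80, 1.51 and 3.97 in replicate 2, and 2.21, 4.69 and 7.27 in replicate 3. With 0, 1 and 2 or more keratinocyte markers there was no common order, at 15.8, 30.8 and 27.0 CPM in Cre+ replicate 4, 5.14, 2.32 and 4.39 in replicate 1, 1.72, 1.71 and 3.27 in replicate 2, and 6.74, 4.72 and 4.11 in replicate 3. Cells with more markers were also deeper, with medians of 10305 and 24556 UMIs for 0 and 2 or more basal markers in Cre+ replicate 4.

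**Figure D4:**
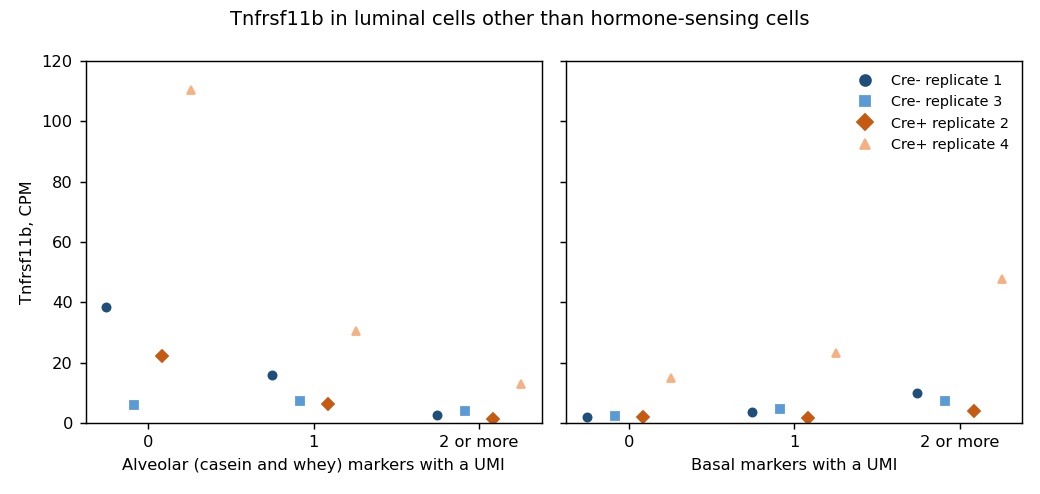
Tnfrsf11b (CPM) in luminal cells outside the hormone-sensing gate, by number of alveolar (left) and basal (right) markers detected in the cell, one point per library and bin. Cre+ replicate 4 lies above the other libraries in every bin, from 110 to 12.8 CPM by alveolar and 14.9 to 47.8 by basal markers.

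Tnfrsf11a was higher in cells with more alveolar markers. In Cre+ replicate 4 it stood at 8.57, 16.9 and 26.0 CPM with 0, 1 and 2 or more alveolar markers, and in Cre- replicate 1 at 0, 26.9 and 42.1 CPM. In Cre+ replicate 2 the values were 14.7, 26.8 and 33.0 CPM and in Cre- replicate 3 they were 5.87, 33.0 and 41.5. The order was the same in all 4 libraries. The first bin holds 22 to 392 cells with 0 to 37 Tnfrsf11a UMIs, and these cells are the shallowest. Over the basal bins the Tnfrsf11a level fell in Cre- replicate 1 (41.8, 41.1 and 37.5 CPM) and in Cre+ replicate 4 (23.6, 20.9 and 17.7). It had no steady order in Cre+ replicate 2 (33.1, 30.4 and 30.7) and Cre- replicate 3 (37.9, 42.1 and 37.5).

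The study asked what the loss of Frmd8 in the mammary epithelium changes, and for these 3 genes no genotype difference passed the test. With 2 mice against 2, 0% of 15831 genes were called in the luminal cells (457 at an unadjusted p under 0.05, and 77 by DESeq2), 0% of 12837 in macrophages (220 and 9), 0% of 12581 in fibroblasts (698 and 66) and 0.0106% of 9438 in T cells (376 and 4). In the luminal cells Tnfrsf11a was 40.8 and 39.1 CPM in Cre- and 31.6 and 21.1 in Cre+ mice. The gene was not called (log2 fold change −0.56, SE 0.22, adjusted p = 1.00, edgeR). How many of all genes tested separate the mice in this way was not counted. In macrophages the log2 fold change of Tnfrsf11a was −0.07 (SE 0.20, adjusted p = 1.00, edgeR). In fibroblasts that of Tnfrsf11b was −0.08 (SE 0.42) and that of Tnfsf11 0.00 (SE 0.70), neither of them called. Tnfrsf11a in fibroblasts was 4.32 and 1.45 CPM in Cre- and 0.69 and 0 in Cre+ mice (log2 fold change −2.34, SE 0.93, adjusted p = 0.902, edgeR), from 50 UMIs in all.

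The genotype value of Tnfrsf11b in luminal cells changed sign without Cre+ replicate 4. That of Tnfsf11 in T cells changed in size but stayed negative without any 1 library. Tnfrsf11b in the luminal cells had a log2 fold change of 1.88 (SE 1.15, adjusted p = 1.00, edgeR), since the Cre+ mice stood at 2.30 and 26.7 CPM, on both sides of the Cre- mice at 3.76 and 4.92. Without Cre+ replicate 2 it was 2.77 (adjusted p = 0.0492, edgeR), and without Cre+ replicate 4 it was −0.96. Leaving out a Cre+ library leaves 1 Cre+ mouse, which is assumed to vary like the Cre- mice. Tnfsf11 in T cells was 52.5 and 51.5 CPM in Cre- and 33.3 and 10.3 in Cre+ mice (log2 fold change −1.24, SE 0.41, adjusted p = 0.937, edgeR). With the same limit, without Cre+ replicate 2 it was −2.14 (adjusted p = 5.83e-09, edgeR), and without Cre+ replicate 4 it was −0.61 (adjusted p = 1.00, edgeR). Frmd8 itself was 64.3 and 58.8 CPM in Cre- and 34.4 and 32.7 in Cre+ T cells (log2 fold change −0.76, SE 0.24, adjusted p = 0.937, edgeR). Its log2 fold change was −0.48 (SE 0.20) in macrophages and −0.25 (SE 0.18) in fibroblasts, neither of them called. A link between Frmd8 and Tnfsf11 in T cells was not tested. No gene of the pathway lists was called in any of the 4 genotype comparisons.

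**Figure D5:**
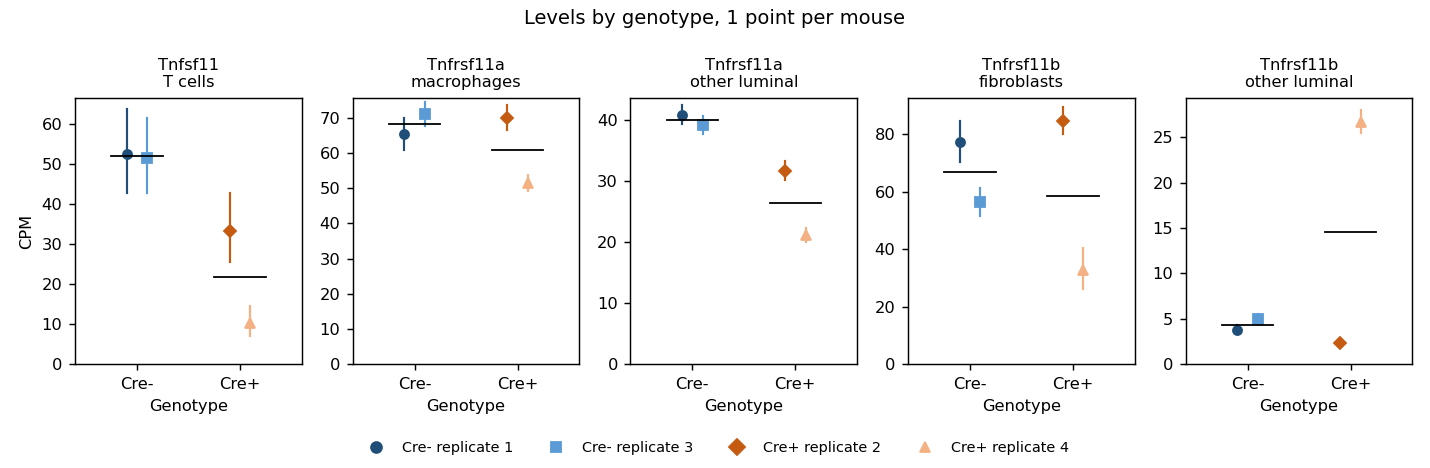
Levels (CPM, with exact 95% Poisson intervals) in Cre- and Cre+ mice of the genes and classes named in the panels, one point per mouse and a black bar for the mean of 2 mice. Tnfsf11 in T cells and Tnfrsf11a in luminal cells are lower in both Cre+ mice but were not called. The share of all genes that separate the mice in this way was not counted. Tnfrsf11b in luminal cells is spread from 2.30 to 26.7 CPM within Cre+.

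Whether the differences between classes depended on the genotype was tested as an interaction in 5 class comparisons, and 0 genes were called in each, with 38 to 555 at an unadjusted p under 0.05 (edgeR). For Tnfsf11 in T cells against other immune cells the interaction was −0.23 (SE 1.29), and for Tnfrsf11b in basal against luminal cells −1.0 (SE 1.56). The hormone-sensing cells had too few libraries for a genotype fit.

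The genes whose levels over 59 sums of class and library (16 classes) ran most like each of the 3 were taken by Pearson correlation of log2(CPM + 1) among 16280 genes, as a description. The sums of a library share its depth, and those of a class its composition. For Tnfsf11 they were Lcn4 (r = 0.94), Gm28112 (0.91), Gm20069 (0.90), Lat (0.90), an adaptor of the T cell receptor, and Klra6 (0.90), a receptor of the NK family. For Tnfrsf11a they were Shtn1 (0.85), Grk3 (0.80), Cxcl16 (0.79), Asl (0.77) and Cds1 (0.76). For Tnfrsf11b they were Pcsk6 (0.86), Sbspon (0.83), Sema3c (0.83), Podxl2 (0.82) and Fst (0.82), of which Pcsk6, Sema3c and Fst encode a secreted protease, a secreted guidance protein and the activin antagonist follistatin.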

How the data were processed

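The deposited values are whole-number UMI counts of each gene in each barcode (10x Genomics 3′ v3), made by the authors with Cell Ranger 6.1.2 for replicates 1 to 3 and Cell Ranger 4 for replicate 4, without normalization or cell annotation. The submitters' processing notes name the build hg38, while the gene identifiers are of mouse, so no coordinates were taken from the files. The 3 genes and all lists, markers included, were chosen with earlier results of these data known. The numbers of markers and of marker UMIs per 10000 that a gate required were set after the marker counts had been seen. A further T cell subset is not reported here. No doublet caller was run, and barcodes with markers of more than 1 lineage were left out.

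Counts were summed per class and library (at least 10 cells) and tested with the quasi-likelihood test of edgeR 4.0.16 (R 4.3.3; TMM, filterByExpr, Benjamini-Hochberg over all genes tested, threshold 0.05), with genotype as a term in class comparisons. DESeq2 1.42.0 and the other alternatives are given below. Other immune cells are all immune classes but T and mast cells. Class sums of a library come from 1 mouse, which pairs them by design, and their deviations correlated at 0.03 to 0.91. In the genotype fits, the p-values measure the spread between mice, 2 per group. In the class fits without a block, the sums of a mouse were taken as independent, so the spread mixes mice and classes. The hormone-sensing fit has 1 mouse per genotype, so its p-values measure only how the class difference varied between these 2 mice. A genotype fit that leaves out a library has 1 mouse in an arm, which is assumed to vary like the other group. Intervals are exact at 95%, and the floor is 3 counts. Named genes were the 3 members, Frmd8, up to 3 called genes per direction and list, and 5 genes of highest correlation per member. Wnt4, Areg, Pgr, Calcr, Ocstamp and Dcstamp levels were added after their values were seen. On simulated counts with 200 changed genes, calls for T against other immune cells recovered 59% of changes of log2 1 and 99% of log2 2 (12315 genes), and calls between genotypes in luminal cells 0% and 40% (15497 genes). Of the calls made, 7.06% and 14.9% were of unchanged genes. The changed genes were drawn from those with a mean over 10 CPM. The recovery rates therefore do not cover genes below that level, such as Tnfrsf11b in luminal cells (mean 9.42 CPM).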

Additional observations from a re-analysis of the deposited data

Results flagged for a closer look

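Signal stood in barcodes that no comparison used. Among the 2078989 barcodes of up to 100 UMIs of Cre+ replicate 4, the only library deposited with them, Tnfrsf11a had 112 UMIs and Tnfrsf11b 49 UMIs, both above the 3 counts that a count of 0 allows, while Tnfsf11 had 2. The level was 22.5 CPM for Tnfrsf11a and 9.84 CPM for Tnfrsf11b, against 640 CPM for Krt8 and 2426 for C1qa in the same barcodes. The barcodes of at least 1000 UMIs outside every class, with markers of several lineages or of none, held 37 UMIs of Tnfsf11, 926 of Tnfrsf11a and 468 of Tnfrsf11b. Of the Tnfrsf11b UMIs, 93 stood in 1 barcode of Cre- replicate 1 with no class.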

How the results depend on the processing

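Log2 differences and mean levels were recomputed together. A log2 difference was kept where its direction and side of the threshold stayed. A mean level was kept where it stayed within the SD of the reported mean. Of 86 values recomputed without 1 library, 75 were kept, 3 passed the threshold newly and 8 turned sign. Leaving out 1 library cannot move a mean level past that SD, so the levels had to be kept. Of 119 under the other alternatives, 109 were kept, 5 passed newly and 5 turned sign, and the cause of a change was not tested unless stated. In the hormone-sensing comparison, the mouse block repeats the reported fit. So does a depth limit set for Cre+ replicate 4, which had no hormone-sensing cells, so these values had to be kept. With upper limits of 5000 genes and 30000 UMIs, Tnfrsf11b in hormone-sensing cells was at −7.83, from 0 UMIs in the cells left, so that the value rests on the prior count, and with a gate without Esr1 and Pgr it was −0.045. With the mouse as a replicate block, Tnfrsf11b in basal cells was 1.90 and Tnfrsf11a in fibroblasts −1.33, and the block changed no other call of the 3 genes. Without a filter on low counts, Tnfrsf11a in fibroblasts was −1.25 and Tnfsf11 by genotype in T cells −1.21 (adjusted p = 0.0215, edgeR). With 1 more marker per gate, Tnfrsf11a and Tnfrsf11b in progenitor-marked cells were −0.10 and 1.46, Tnfrsf11a in fibroblasts −1.93 and Tnfsf11 by genotype in fibroblasts −0.041. Leaving out each library in turn gave 1.28 to 2.45 for Tnfrsf11b in basal and −0.80 to 0.0099 in progenitor-marked cells, and by genotype −0.96 to 2.77 for Tnfrsf11b in luminal cells, −0.24 to 0.057 for Tnfrsf11a in macrophages, −0.55 to 0.13 for Tnfsf11 and −0.98 to 0.39 for Tnfrsf11b in fibroblasts, and −2.14 to −0.61 for Tnfsf11 in T cells. The hormone-sensing comparison, with 2 libraries, allowed no such fit.

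Counts of called genes ranged over the alternatives from 2302 to 4155 for hormone-sensing (2334 as reported), 282 to 2290 for basal (1393), 0 to 123 for progenitor-marked (0), 5083 to 7989 for T cells (6825), 2147 to 3836 for mature dendritic cells (3293) and 4952 to 7420 for fibroblasts (6411). The lowest count was 282 for basal without Cre- replicate 1 (397 without Cre- replicate 3) and 2147 for mature dendritic cells without Cre- replicate 3. By genotype they ranged from 0 to 98 in luminal cells, 0 to 1204 in macrophages, 0 to 585 in fibroblasts (each 0 as reported) and 0 to 1127 in T cells (1), and the highest counts in luminal cells, macrophages and T cells came without Cre+ replicate 2. DESeq2 gave no adjusted p for Tnfsf11 and Tnfrsf11a by genotype in fibroblasts. Tnfsf11 had 58 to 156 UMIs per library, which limits its precision.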
